A study of Mus musculus with 10 samples.

Results

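Deubiquitinases are the proteases that remove ubiquitin from proteins. The genes described here are those of the count table whose symbols begin with Usp and a digit, Otud, Otub, Uchl and a digit, or Josd, after the transcript of each counted segment was matched to its gene. The rule found 71 of the 21098 genes in the table, of which 56 are Usp genes, 9 belong to the OTU family, 4 to the Uchl family and 2 to the Josephin family. No measured value entered this choice. Usp6nl fits the rule by its symbol alone, since it encodes a protein that acts on Rab GTPases and not a deubiquitinase.

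Gastrocnemius (GAS) muscle of wild-type male C57BL/6J mice was measured by bulk mRNA sequencing in 10 libraries, 5 in each group. All mice, controls included, were put on a high fat diet at 9 weeks of age to induce obesity (DIO), had it for 9 weeks before treatment and stayed on it during treatment. The ASO group received RES-010, an antisense oligonucleotide against miR-22, under the skin once weekly at a dose of 10 mg/kg over 14 weeks, and the CTRL group received the same volume of 0.9% saline. The age is given as 30 weeks, which is below the sum of these times, and body weights were not analysed here. The control is therefore saline and not an oligonucleotide of another sequence, there is no lean group, and effects of the oligonucleotide as such cannot be told apart from those of the loss of miR-22 activity.

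Ubiquitin is attached to proteins singly or in chains and marks them for the proteasome, for sorting between membranes or for a change of activity. Deubiquitinases reverse these marks, trim chains at the proteasome and return free ubiquitin to the cell. The USP, UCH, OTU and Josephin families are cysteine proteases that differ in fold and in the chains they cut. In skeletal muscle, ubiquitin-dependent breakdown of myofibrillar proteins is a main route of atrophy, and deubiquitinases act on the other side of the same balance.

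The treatment is aimed at a microRNA, so its sequence and the places where its seed has a perfect match in 3′UTRs of deubiquitinases are shown first. The mature mouse miR-22-3p is given as RefSeq lists it (GRCm38.p6), with its seed, bases 2 to 8, in capitals. The matches come from the genome sequence of GRCm39 and the GENCODE M39 annotation, are written 5′ to 3′ on the sense strand, and carry the complement of the seed, GGCAGCT, in capitals. They were chosen because each lies in or beside a segment whose counts are described below.
mmu-miR-22-3p: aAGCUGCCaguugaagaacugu
Usp24 3′UTR, chr4:106298198-106298220, plus strand: gatgagcctcccacaGGCAGCTc
Josd2 3′UTR, chr7:44120833-44120855, plus strand: cctcaggaccttcctGGCAGCTg
Usp32 3′UTR, chr11:84876451-84876473, minus strand: cgcactgctgggtgtGGCAGCTg
Usp37 3′UTR, chr1:74474900-74474922, minus strand: actcccaggtttgctGGCAGCTt
Usp3 3′UTR, chr9:66424785-66424807, minus strand: ggaccatttaaagaaGGCAGCTa

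In the longest 3′UTR of a protein-coding transcript, searched on the sense strand only, 12 of 39 tested deubiquitinases (30.8%) held such a match, beside 1690 of 7781 tested genes with a 3′UTR (21.7%). Among tested deubiquitinases the 3′UTRs with a match had a median length of 3677.5 bases and those without one 1544 bases. The 12 deubiquitinases with a match had a median log2 fold change of -0.01 and the 27 without one of -0.11, and over all tested genes the same medians were -0.01 and -0.04. Of the deubiquitinases that rose in the ASO group, described below, Usp24 and Josd2 held a match, and of those that fell, Usp32 did. The 3′UTR was chosen by length and not by the canonical transcript of the annotation. The counted segment around the Josd2 match has 292 of its 500 bases in the coding sequence of that gene's canonical transcript. A match is a stretch of letters and does not show that miR-22 binds there.

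The table counts read pairs on the last 500 bases of the 3′UTR of each annotated transcript, so that a gene with several transcript ends has several segments. The 71 genes have 184 segments, of which 105 had counts, and together the genes held between 0.289% and 0.383% of a library's counts. Library totals ran from 1606909 to 2116720 counts in the CTRL group and from 2239186 to 2632560 in the ASO group, so every ASO library was deeper than every CTRL library. The labels give separate libraries and do not tie each to an animal, so p-values measure the spread between these libraries.

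A total of 39 deubiquitinases had enough counts to be tested. Another 15 had counts too low for the test, namely Otub1, Otub2, Otud7a, Uchl4, Usp8, Usp12, Usp19, Usp20, Usp27x, Usp28, Usp29, Usp36, Usp44, Usp45 and Usp50. The remaining 17 were at 0 counts in all libraries. For 7 of them, Otud7b, Usp1, Usp25, Usp26, Usp35, Usp43 and Usp54, no base of any segment is free of overlap with another counted segment. The other 10 were Uchl3, Usp9x, Usp9y, Usp30, Usp51 and the 5 genes Usp17la to Usp17le, and their longest stretch of unshared bases ran from 1 base in Uchl3 to 500 bases in Usp9x, Usp30, Usp17la and Usp17lc. A count of 0 allows up to 3 counts, which is 1.25 to 1.77 CPM (counts scaled to 1000000 on the TMM-adjusted library size) in these libraries, and covers counting error only. Since pairs that fall on shared bases can be lost in counting, a gene at 0 here is not shown to be silent.

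Per kb of counted segment, Usp47, which acts in Wnt signalling and DNA repair, had the highest level in the CTRL group with 487 ± 90.7 CPM per kb (SD, n = 5). Usp2, a deubiquitinase with strong circadian regulation in many tissues, followed with 408 ± 113 CPM per kb, and Usp13, a relative of Usp5, with 308 ± 53.8 CPM per kb. Otud1 was at 306 ± 102 CPM per kb and Usp24 at 240 ± 31.7 CPM per kb. Neighbours in this order differed by less than the larger of their SDs. The counted segments of Usp47 lie wholly outside the exons of its canonical transcript in the annotation. The median coefficient of variation over the tested deubiquitinases was 18.8% in the CTRL group and 19.8% in the ASO group, and Uchl1 (95.3%) and Otud1 (81%) varied most among ASO libraries.

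Between the ASO and CTRL groups the counted levels of 9 of the 39 tested deubiquitinases differed (edgeR quasi-likelihood test, Benjamini-Hochberg adjusted p below 0.05), beside 29.2% of all 7819 tested genes. The levels of Uchl5, Usp24, Usp34 and Josd2 rose, and those of Usp5, Usp7, Usp32, Usp40 and Otud6b fell. The 4 that rose and the 5 that fell compare with 11.7% and 17.5% of all tested genes in these directions, and the share of deubiquitinases called, 23.1%, was near that background. Without adjustment 12 had a p below 0.05, beside 41.2% of all tested genes. The sizes of the called changes ran from 0.51 to 1.20 on the log2 scale. The groups did not overlap for 7 deubiquitinases, 3 of them higher and 4 lower in all ASO libraries, beside 21.4% of all tested genes without overlap. The median log2 fold change was -0.01 over the tested deubiquitinases and -0.03 over all tested genes, with interquartile ranges of -0.33 to 0.27 and -0.51 to 0.35. The summed level of the tested deubiquitinases was between 2635 and 3627 CPM in CTRL libraries and between 3115 and 3683 CPM in ASO libraries, so the groups overlapped.

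The call counts depended on the scaling. Over all genes 916 were higher and 1365 lower with TMM scaling, 528 and 1821 with total counts alone, and 1261 and 1207 with the upper quartile. With total counts alone the median of all genes moved from -0.03 to -0.21, and 1 deubiquitinase rose and 8 fell. The 9 genes called with TMM kept their direction under each of these scalings.

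**Figure D1:**
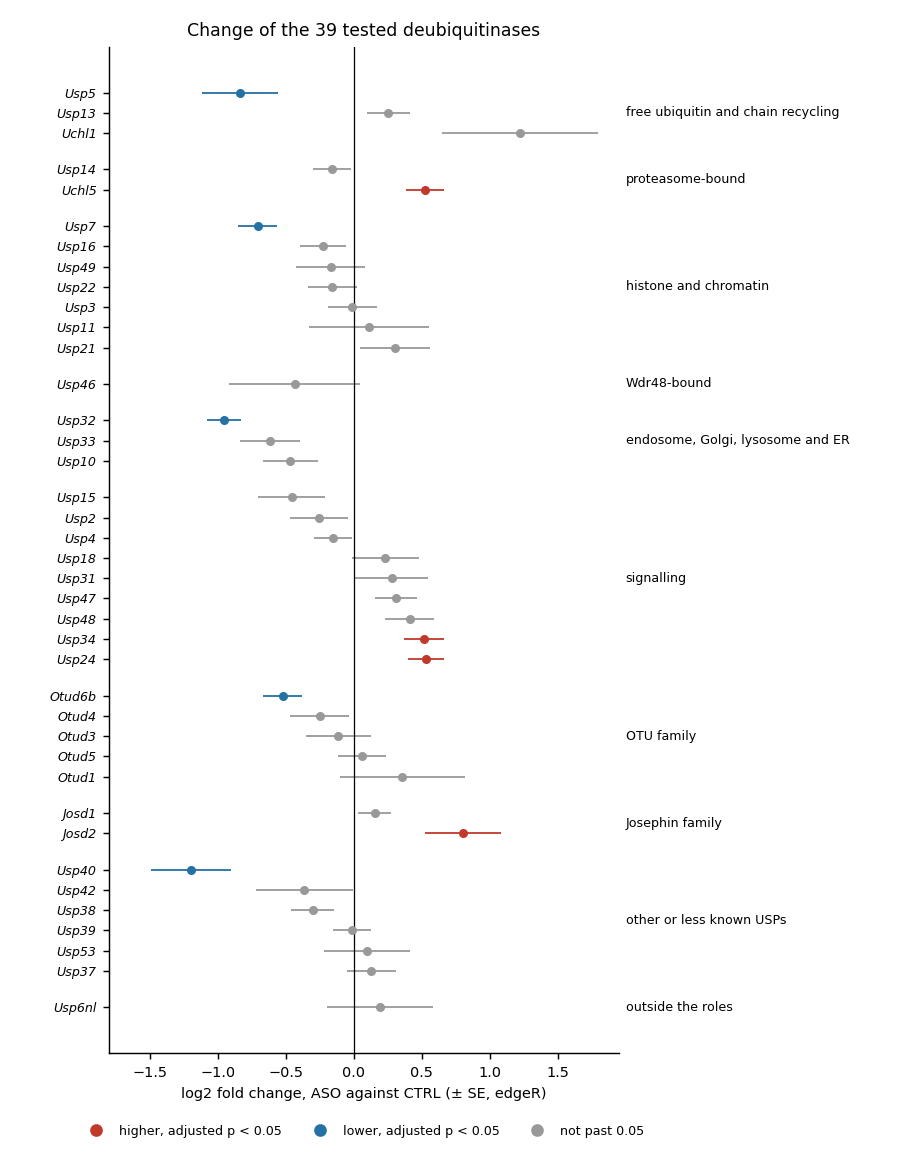
Log2 fold change (x axis, ASO against CTRL, bars are standard errors from edgeR) of the 39 tested deubiquitinases, grouped by role from top to bottom. Red points rose, blue points fell and grey points did not pass an adjusted p of 0.05, and the called changes lie between -1.20 (Usp40) and 0.80 (Josd2).

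Muscle fiber markers differed between the groups. Of the 10 fiber markers in the table, 8 had counts, 4 were tested and 3 of these rose, while Mb and Tnnt3 were at 0 counts. Their summed level was 43683 to 82600 CPM in CTRL libraries and 88376 to 135971 CPM in ASO libraries, without overlap. Of the macrophage markers 1 of 6 tested fell, with sums of 263 to 1620 CPM and 75 to 584 CPM, and Adgre1 was at 0 counts. Of the fibroblast markers 1 of 3 tested fell, with sums of 190 to 340 CPM and 38.2 to 256 CPM, and Dcn was at 0 counts. Of the smooth muscle and pericyte markers 1 of 5 tested rose, with overlapping sums, and no tested adipocyte, endothelial, satellite cell or blood marker passed. CTRL replicate 3 stood apart, with an adipocyte marker sum of 13349 CPM beside 846 to 2334 CPM in the other CTRL libraries, the highest macrophage sum and the lowest fiber sum. Without it 3 deubiquitinases rose and 6 fell. In bulk tissue fewer cells of a type and less RNA per cell cannot be told apart, and the part of tissue makeup in the changes of the deubiquitinases was not tested.

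Among the enzymes that recycle free ubiquitin and cut unanchored chains, 1 of 3 tested changed. Usp5, which disassembles unanchored ubiquitin chains, was at 10.4, 11.7, 13.3, 14.8 and 9.54 CPM in the CTRL libraries and at 5.31, 7.22, 3.38, 8.35 and 8.96 CPM in the ASO libraries. Every ASO library lay below every CTRL library, the closest pair being 8.96 and 9.54 CPM. The log2 fold change was -0.84 (SE 0.28, edgeR quasi-likelihood adjusted p = 0.041). Only 19 bases of the counted segment of Usp5 are unshared, and the gene had 8 to 27 counts per library. The call was lost without CTRL replicate 1, 2, 3 or 4 and without ASO replicate 1, 2 or 3, with adjusted p-values up to 0.10.

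Usp13, the close relative of Usp5, was at 391, 328, 263, 373 and 276 CPM in the CTRL libraries and at 300, 367, 405, 418 and 456 CPM in the ASO libraries. The groups overlapped, and the log2 fold change was 0.25 (SE 0.16, edgeR adjusted p = 0.25). Uchl1, an enzyme known for its abundance in neurons and named here after its values were seen, was at 17.9, 6.06, 9.39, 17.7 and 8.98 CPM in the CTRL libraries and at 4.35, 25.5, 16.1, 73.5 and 20.3 CPM in the ASO libraries. ASO replicate 4 stood above all others while ASO replicate 1 was the lowest of all 10. The log2 fold change of Uchl1 was 1.23 (SE 0.57, edgeR adjusted p = 0.13), 0.50 (adjusted p = 0.43) without ASO replicate 4 and 1.52 (adjusted p = 0.033) without ASO replicate 1. The 8 Schwann cell and nerve markers summed to 477 CPM in ASO replicate 4 and to 36.2 to 111 CPM in the other ASO libraries, beside 60.4 to 101 CPM in the CTRL libraries. Pmp2 and Prph of that list were at 0 counts, neither of the 2 tested markers passed the threshold, and the part of nerve tissue in the Uchl1 values was not tested.

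At the proteasome, Uchl5 rose and Usp14 did not pass the threshold. Uchl5, which binds the proteasome through the receptor Adrm1 and cuts branched chains, was at 48.1, 54.1, 37.0, 51.9 and 46.6 CPM in the CTRL libraries and at 68.1, 79.4, 71.9, 58.4 and 64.1 CPM in the ASO libraries. All ASO libraries were above all CTRL libraries. Its log2 fold change was 0.52 (SE 0.14, edgeR adjusted p = 0.015), and with total counts as the scaling it was 0.35 (adjusted p = 0.067). Of the 1238 counts of Uchl5, 1216 came from a segment of a transcript annotated for nonsense-mediated decay. That segment ends 525 bases before the most distal counted end, and 249 of its 500 bases lie outside the exons of the canonical transcript. Usp14, which trims chains at the proteasome, was at 168, 160, 133, 139 and 156 CPM in the CTRL libraries and 145, 155, 131, 142 and 102 CPM in the ASO libraries. The groups overlapped, and its log2 fold change was -0.16 (SE 0.14, edgeR adjusted p = 0.40).

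Of the 7 tested enzymes that act on histones and chromatin proteins, Usp7 fell and the other 6 did not pass the threshold. Usp7, which stabilises Mdm2 and p53, was at 134, 136, 123, 129 and 158 CPM in the CTRL libraries and at 98.5, 94.7, 63.0, 75.6 and 84.4 CPM in the ASO libraries. Each ASO value was below the lowest CTRL value. Its log2 fold change was -0.71 (SE 0.14, edgeR adjusted p = 0.0036). On its most distal tested segment alone, in a fit added after the data were seen, it was -0.36 (adjusted p = 0.13), and the segments of Usp7 are described below. The other 6, among them the histone H2A enzymes Usp3 and Usp16 and the SAGA subunit Usp22, had log2 fold changes between -0.23 and 0.30.

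Among the enzymes of endosomes, Golgi and endoplasmic reticulum, 1 of 3 tested changed. Usp32, which acts at Golgi and endosomal membranes, had the smallest adjusted p of all deubiquitinases. It was at 54.7, 53.6, 62.7, 59.6 and 60.1 CPM in the CTRL libraries and at 31.9, 31.0, 33.0, 27.1 and 26.9 CPM in the ASO libraries. The groups were far apart, with no CTRL library below 53.6 CPM and no ASO library above 33.0 CPM. The log2 fold change was -0.95 (SE 0.12, edgeR adjusted p = 3.3e-04). On its most distal tested segment alone it was 0.074 (adjusted p = 0.81), so the direction turned there.

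Usp33 was at 60.8, 46.6, 41.0, 50.2 and 53.3 CPM in the CTRL libraries and at 20.3, 23.4, 46.1, 38.4 and 35.8 CPM in the ASO libraries. A single ASO library, replicate 3, reached into the CTRL range. This gave a log2 fold change of -0.62 (SE 0.22, edgeR adjusted p = 0.051). Usp10, which is bound and regulated by the stress granule proteins G3bp1 and G3bp2, had a log2 fold change of -0.47 (SE 0.20, edgeR adjusted p = 0.10).

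Of the 9 tested enzymes known from signalling routes, 2 rose and none fell. Usp24 was at 129, 142, 100, 114 and 115 CPM in the CTRL libraries and at 173, 169, 164, 157 and 207 CPM in the ASO libraries. Every ASO library exceeded every CTRL library. Its log2 fold change was 0.53 (SE 0.13, edgeR adjusted p = 0.010). All its counts came from the end of its 3′UTR (chr4:106298020-106298519, plus strand, GRCm39), the segment that holds the seed match printed above.

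Usp34, a very large enzyme that acts on axin in Wnt signalling, was at 83.9, 97.5, 69.6, 74.3 and 57.8 CPM in the CTRL libraries and at 110, 98.1, 109, 113 and 119 CPM in the ASO libraries. The groups were separate, although the highest CTRL and the lowest ASO library nearly touched. Its log2 fold change was 0.51 (SE 0.15, edgeR adjusted p = 0.019), and with total counts as the scaling it was 0.34 (adjusted p = 0.081). Usp47, first in the order per kb, was at 569, 679, 394, 590 and 547 CPM in the CTRL libraries and at 693, 669, 705, 593 and 789 CPM in the ASO libraries. The groups overlapped, and its log2 fold change was 0.31 (SE 0.16, edgeR adjusted p = 0.15).

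Usp2 was at 550, 684, 411, 780 and 872 CPM in the CTRL libraries and at 491, 413, 516, 619 and 717 CPM in the ASO libraries. The groups overlapped widely, and its log2 fold change was -0.26 (SE 0.21, edgeR adjusted p = 0.39). The TGF-beta pathway enzymes Usp4 and Usp15 had log2 fold changes of -0.15 and -0.46 (edgeR adjusted p = 0.44 and 0.18). Without CTRL replicate 3, its lowest CTRL library, Usp15 was at -0.64 (adjusted p = 0.023). Usp18, which removes the ubiquitin-like interferon product Isg15, was at 0.23 on the same scale (adjusted p = 0.51).

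In the OTU family 1 of 5 tested members fell. Otud6b was at 124, 131, 91.9, 132 and 128 CPM in the CTRL libraries and at 93.2, 88.3, 64.7, 88.5 and 87.2 CPM in the ASO libraries. CTRL replicate 3 lay below ASO replicate 1, so the groups overlapped by that library. The log2 fold change was -0.52 (SE 0.15, edgeR adjusted p = 0.017), and -0.61 (adjusted p = 0.0063) without CTRL replicate 3. Nearly all its counts, 2129, came from a segment that ends 548 bases before the most distal counted end, inside the canonical 3′UTR.

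Otud1 was the most variable of the family, at 158, 82.5, 147, 153 and 226 CPM in the CTRL libraries and at 63.2, 76.9, 211, 457 and 171 CPM in the ASO libraries. ASO replicate 4 held the highest value and ASO replicate 1 the lowest, as for Uchl1. Its log2 fold change was 0.36 (SE 0.46, edgeR adjusted p = 0.59) and -0.21 (adjusted p = 0.69) without ASO replicate 4.

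Of the Josephin family, Josd2 rose. It was at 11.3, 16.3, 4.94, 10.0 and 12.9 CPM in the CTRL libraries and at 15, 20.4, 21.6, 16.7 and 23.6 CPM in the ASO libraries. The groups overlapped by CTRL replicate 2. It rose by 0.80 on the log2 scale (SE 0.28, edgeR adjusted p = 0.046), on 10 to 51 counts per library, and the call was lost without CTRL replicate 1, 3, 4 or 5 and without ASO replicate 2, 3 or 5 (adjusted p up to 0.098). Both counted segments of Josd2 belong to transcripts annotated for nonsense-mediated decay. Its relative Josd1 had a log2 fold change of 0.15 (SE 0.12, edgeR adjusted p = 0.36).

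Of the 6 other tested USPs, Usp40 fell. It was at 7.07, 8.39, 8.89, 8.26 and 14.0 CPM in the CTRL libraries and at 5.31, 3.82, 3.38, 2.50 and 5.19 CPM in the ASO libraries. All ASO libraries were below all CTRL libraries, on only 6 to 25 counts each. The log2 fold change was -1.20 (SE 0.29, edgeR adjusted p = 0.0095), the largest in size among the called deubiquitinases. Of the 135 counts of Usp40, 127 came from a segment of a transcript annotated for nonsense-mediated decay. That segment lies 1322 bases upstream of the distal counted end, with 235 of 500 bases outside canonical exons. Usp39, which lacks protease activity and serves in the spliceosome, and Usp37, an enzyme of the cell cycle, had log2 fold changes of -0.01 and 0.13 (edgeR adjusted p = 0.96 and 0.63). Usp46, the only tested enzyme of those activated by Wdr48, was at -0.43 on that scale (adjusted p = 0.52).

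**Figure D2:**
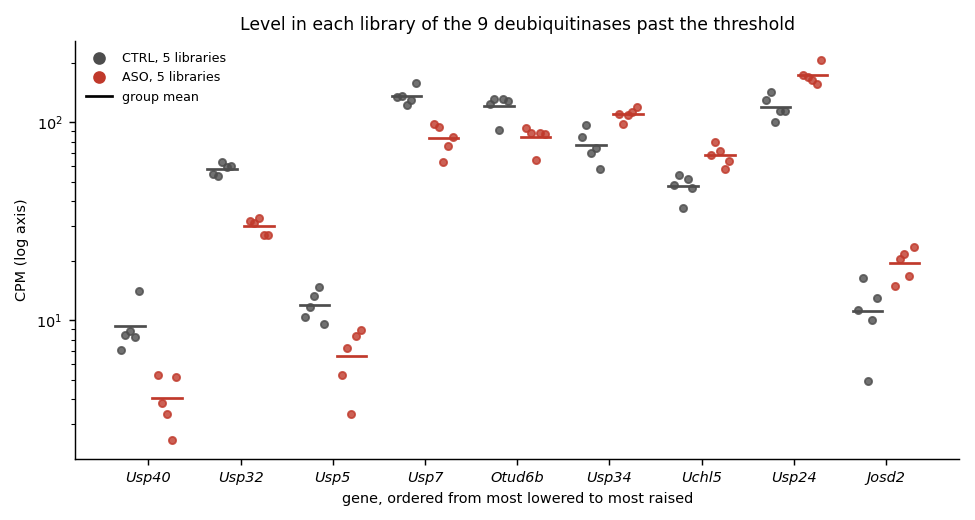
Level in CPM (y axis, log scale) of the 9 deubiquitinases past the threshold in each of the 5 CTRL (grey) and 5 ASO (red) libraries, with a line at each group mean. Usp40, Usp32, Usp5 and Usp7 were lower in every ASO library and Usp34, Uchl5 and Usp24 higher in every ASO library, while Otud6b and Josd2 overlapped.

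The segments of a gene did not all move alike. Of 54 single segments of deubiquitinases that could be tested on their own, 10 rose and 13 fell (edgeR quasi-likelihood, adjusted p below 0.05), beside 15.9% and 24.7% of all 10658 tested segments. In 13 deubiquitinases at least 2 segments were tested, and their fold changes differed from each other in 9 of them (edgeR's test of segment usage, Benjamini-Hochberg adjusted), beside 47.0% of 2272 genes. In all 13 the most distal tested segment had a higher log2 fold change than the upstream segments, by a median of 1.53. This was so in 89.1% of the 2272 genes, by a median of 1.03, and among the 1067 genes called the distal segment was the higher in 96.3%. The direction was therefore shared with most genes of the table.

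Usp13 showed the largest such difference. Its distal segment in the canonical 3′UTR (chr3:32991721-32992220) was at 317, 276, 203, 264 and 172 CPM in the CTRL libraries and at 280, 341, 382, 383 and 419 CPM in the ASO libraries. Its upstream segment (chr3:32968683-32969182), of which 473 of 500 bases lie outside the exons of the canonical transcript, was at 69.8, 50.8, 58.3, 106 and 102 CPM in the CTRL libraries and 19.8, 23.4, 16.9, 30.9 and 29.7 CPM in the ASO libraries. On the distal segment all ASO libraries but replicate 1 were above all CTRL libraries, and on the upstream segment every ASO library was below them. The log2 fold changes were 0.59 (SE 0.19, edgeR adjusted p = 0.022) and -1.64 (SE 0.25, adjusted p = 3.0e-04), and the usage test gave an adjusted p of 5.7e-07.

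Usp37 also moved in both directions. Its distal segment (chr1:74474670-74475169, minus strand), which holds the seed match printed above, was at 8.49, 14.0, 14.8, 11.8 and 13.5 CPM in the CTRL libraries and at 18.3, 24.6, 22.8, 22.1 and 21.7 CPM in the ASO libraries. The segment that ends 2219 bases upstream, also in the 3′UTR, was at 8.49, 10.7, 11.9, 10.6 and 16.3 CPM in the CTRL libraries and at 4.35, 6.80, 5.07, 3.34 and 2.36 CPM in the ASO libraries. Neither pair of groups overlapped. The log2 fold changes were 0.85 (SE 0.21, edgeR adjusted p = 0.0056) and -1.34 (SE 0.31, adjusted p = 0.0039), and the gene sum was nearly level.

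The fall of Usp32 came from its upstream segments. The segment at chr11:84876473-84876972 (minus strand), whose last base is the first of the printed stretch with the seed match, was at 17.9, 20.5, 27.2, 27.1 and 17.4 CPM in the CTRL libraries and at 8.21, 8.07, 2.96, 6.26 and 5.66 CPM in the ASO libraries. The distal segment, 1205 bases further, was at 28.8, 17.3, 18.3, 15.9 and 16.8 CPM and at 19.8, 18.7, 26.6, 17.5 and 19.8 CPM. Only the upstream segment separated the groups. The log2 fold changes were -1.78 (SE 0.28, edgeR adjusted p = 3.5e-04) and 0.12 (SE 0.22, adjusted p = 0.69). The upstream segment belongs to a transcript annotated for nonsense-mediated decay. By position, a transcript that ends at the upstream site lacks the match and one that reaches the distal segment holds it. The part of the match in these changes was not tested.

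In Usp7 the segment 8051 bases upstream of its distal counted end, of which 353 of 500 bases are outside canonical exons, was at 29.2, 29.4, 42.0, 50.7 and 64.0 CPM in the CTRL libraries. In the ASO libraries it was at 10.6, 8.92, 10.1, 5.01 and 12.7 CPM, far below. Its log2 fold change was -2.14 (SE 0.29, edgeR adjusted p = 1.4e-04), the largest fall of any tested segment of a deubiquitinase. The segment in the 3′UTR of Usp7 (chr16:8508010-8508509, minus strand) had a log2 fold change of -0.32 (SE 0.17, adjusted p = 0.14).

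Usp2, Usp33 and Usp39 each have such an internal segment as well. These fell, with log2 fold changes of -1.55, -1.68 and -1.20 (edgeR adjusted p = 0.0017, 4.4e-04 and 0.0056), while the distal segments were at 0.47, -0.15 and 0.46 (adjusted p = 0.096, 0.68 and 0.020). In all, 6 tested segments of deubiquitinases belong to transcripts annotated for nonsense-mediated decay, lie upstream of the distal end and hold no base of the canonical 3′UTR, and 5 of them fell while that of Josd2 rose. Over all genes 69.3% of 1204 tested segments of this kind fell and 1.99% rose, and of all 4623 upstream segments 47.0% fell and 6.51% rose. In Usp3 the upstream segment with the seed match printed above had a log2 fold change of -1.59 (adjusted p = 0.0015) and the one nearer to the end of 0.66 (adjusted p = 0.030). Usp15 had most counts on a segment in its canonical 3′UTR, 6730 bases upstream of its distal one. The log2 fold changes were -0.55 (adjusted p = 0.10) on that upstream segment and 1.14 (adjusted p = 0.043) on the distal one. The distal segment of Usp15 lies wholly outside canonical exons and had 1 to 20 counts per library.

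**Figure D3:**
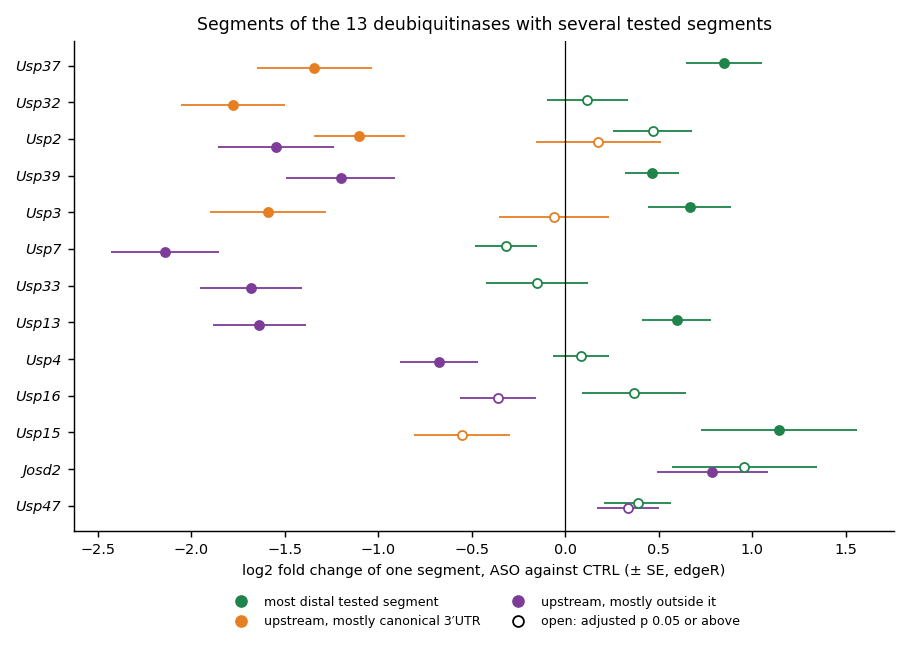
Log2 fold change (x axis, ASO against CTRL, bars are standard errors from edgeR) of each tested segment of the 13 deubiquitinases with at least 2 tested segments. The most distal tested segments (green) lie between -0.32 and 1.14 and upstream segments between -2.14 (Usp7) and 0.79 (Josd2), and in each gene the green point is the rightmost.

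The share of a gene's counts on its most distal tested segment gave the same order in single libraries. For Usp7 it was 77.9%, 78.3%, 65.4%, 60.7% and 59.6% in the CTRL libraries. In the ASO libraries it was 89.1%, 90.5%, 83.3%, 93.2% and 84.7%, each above the highest CTRL value. For Usp32 it rose from 46.7% ± 9.57 to 76.4% ± 8.21 (SD, n = 5 per group), for Usp2 from 45.2% ± 6.06 to 71.9% ± 3.17 and for Usp37 from 52.0% ± 4.56 to 83.6% ± 4.80. In these and in Usp39, Usp3, Usp33, Usp13, Usp4 and Usp15 every ASO library was above every CTRL library (exact permutation test, two-sided, p = 0.0079, below which 5 against 5 libraries cannot go, in 13 such comparisons). Usp16 overlapped (exact p = 0.024), and Josd2 and Usp47 differed by 3.90 and 1.24 percentage points (exact p = 0.46 and 0.66). The share of all genes that separate in this way was not counted. Since the distal segment was the higher in 89.1% of 2272 genes, the separation is not shown to be particular to deubiquitinases.

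**Figure D4:**
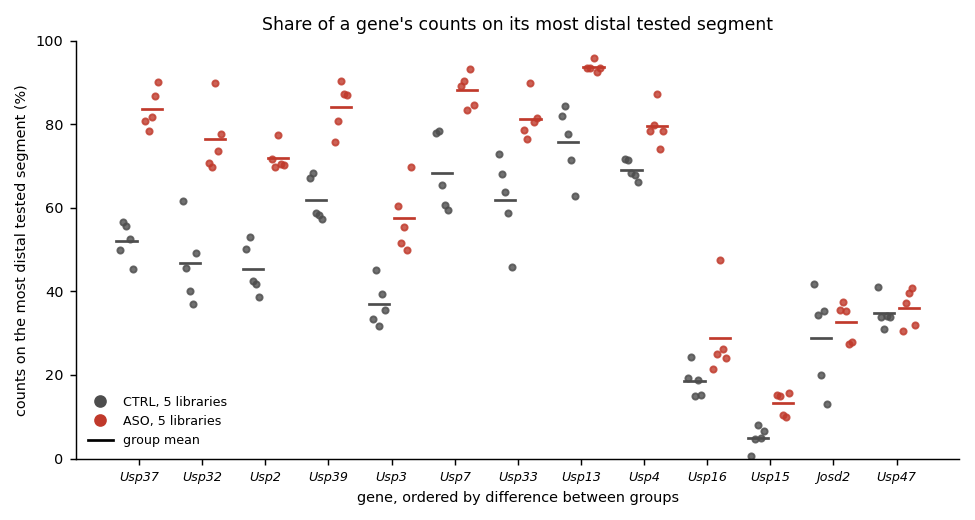
Share of the counts of tested segments that fall on the most distal one (y axis, percent) for 13 deubiquitinases in each CTRL (grey) and ASO (red) library, with a line at each group mean. In 10 genes all ASO libraries lie above all CTRL libraries, as for Usp37 (52.0% and 83.6% on average), and Usp16, Josd2 and Usp47 overlap. The share of all genes without overlap was not counted.

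The same measure over the table separated the groups. For 1592 genes the log2 ratio of distal to upstream counts was formed in each library, and its median was between -0.45 and 0.49 in CTRL libraries and between 1.18 and 1.68 in ASO libraries (two-sided exact permutation test p = 0.0079). The part of this ratio in the changes of gene sums such as those of Usp32 and Usp7 was not tested. Depth separated the groups too. With every library drawn down to the smallest total, Usp32 was at -0.92 and Usp7 at -0.69 (edgeR adjusted p = 9.3e-04 and 0.0047). Drawing down equalises the totals only, and the part of other differences that go with depth was not tested.

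In the test of the most distal segment with any count, 25 deubiquitinases had a value, none rose and Usp5 and Usp38 fell, beside 6.38% of 6081 genes that rose and 9.93% that fell. Their log2 fold changes were -1.06 and -0.52 (edgeR adjusted p = 0.026 and 0.034). These libraries were scaled anew on distal segments, which also shifted genes with a single counted segment. Usp38 has a single segment and its gene sum was at -0.30 (adjusted p = 0.16), and Usp24, with a single counted segment, went from 0.53 to 0.31. Usp38 was thus not called on the scale of the gene sums, and the most distal segment often held few counts. With the most distal segment that passed the filter instead, an alternative scaled as the gene sums and added after the data were seen, 38 had a value, 6 rose and 3 fell, beside 16.4% and 11.3% of 7550 genes. The median log2 fold change was then 0.26 over the deubiquitinases and 0.15 over all genes. Usp37, Usp39 and Usp13 rose in that fit, with log2 fold changes of 0.81, 0.42 and 0.55 (adjusted p = 0.010, 0.041 and 0.043).

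Other genes of the pathway were read from the same test of gene sums. Of the deubiquitinases outside the symbol rule, 28 were in the table and 16 tested, of which 2 rose, 2 fell and 12 did not pass. The 25% called stand beside 29.2% of all tested genes, and the median of the 16 was 0.15 on the log2 scale. Psmd14, the deubiquitinase of the proteasome lid, was at 127, 141, 136, 106 and 96.6 CPM in the CTRL libraries and at 162, 170, 181, 172 and 167 CPM in the ASO libraries, without overlap. It rose by a log2 fold change of 0.49 (SE 0.13, edgeR adjusted p = 0.015), in the same direction as Uchl5. Eif3h, a subunit of a translation initiation factor with a related fold, rose by 0.77 (SE 0.15, adjusted p = 0.0025). Mindy2, which trims long chains, fell by 0.97 (SE 0.14, adjusted p = 5.1e-04), and on its most distal tested segment alone was at -0.64 (adjusted p = 0.0073). On that segment Bap1, Atxn3, Cops5 and Otulin, not called on gene sums, rose to 1.08, 0.64, 0.55 and 0.64 (adjusted p = 6.6e-04, 0.024, 0.025 and 0.040). Eif3h and Psmd14 rose there too, and of this list only Mindy2 fell. In that fit 16.4% of 7550 genes rose and 11.3% fell.

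Brcc3, the K63-specific enzyme of the BRISC and BRCA1-A complexes, fell by 0.69 (SE 0.18, edgeR adjusted p = 0.015) and was at -0.06 (adjusted p = 0.87) on its most distal tested segment alone. Its scaffold partners Abraxas2 and Abraxas1 fell, with log2 fold changes of -2.75 and -1.73 (SE 0.31 and 0.34, adjusted p = 1.4e-04 and 0.0028), and on the distal segment alone Abraxas2 was at -2.62 (adjusted p = 0.0015). Abraxas1 was low, at 4.72 to 7.41 CPM in CTRL libraries and 0.846 to 2.55 CPM in ASO libraries. In these libraries 3 counts are 1.25 to 1.77 CPM. Abraxas2 was at 18.9, 20.1, 26.2, 32.5 and 44.4 CPM in the CTRL libraries and at 4.83, 5.52, 2.96, 4.59 and 2.83 CPM in the ASO libraries, which left a wide gap between the groups. Babam1, a further subunit of both complexes, rose by 0.95 (SE 0.14, adjusted p = 6.9e-04). Babam2, also in this list, did not pass, with a log2 fold change of -0.20 (SE 0.13, adjusted p = 0.26). On its most distal tested segment alone it was at 0.72 (adjusted p = 0.071). The called members of these complexes thus moved in both directions on gene sums.

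Of the ubiquitin genes, E1 enzymes and partners of deubiquitinases, 15 of 24 were tested, 4 rose, 5 fell and 6 did not pass, with a median of -0.13. The 60.0% called stand beside 29.2% of all tested genes. The list was chosen with earlier results of these data known, so this share describes the list and does not test for an excess. Ubb, a gene for polyubiquitin, was at 276, 315, 275, 318 and 299 CPM in the CTRL libraries and at 407, 438, 447, 367 and 440 CPM in the ASO libraries, and rose by 0.50 (SE 0.12, edgeR adjusted p = 0.0077). Adrm1, the receptor of Uchl5 at the proteasome, rose by 0.69 (SE 0.22, adjusted p = 0.031), with overlapping groups. Uba6, an alternative ubiquitin-activating enzyme, fell by 1.60 (SE 0.25, adjusted p = 8.6e-04). The partners of Usp10 diverged, with a log2 fold change of -2.47 for G3bp2 (SE 0.24, adjusted p = 1.1e-04) and of 0.75 for G3bp1 (SE 0.23, adjusted p = 0.026). On its most distal tested segment alone G3bp2 was at -1.05 (adjusted p = 0.0079).

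Of the proteases of ubiquitin-like proteins, 11 of 15 were tested. On gene sums none rose, 5 fell and 6 did not pass, with a median of -0.34. The 45.5% that fell stand beside 17.5% of all tested genes. This list too was chosen with earlier results of these data known, so the share does not test for an excess. Atg4a, Atg4b and Atg4d, which process the autophagy proteins of the Atg8 family, fell, with log2 fold changes of -1.37, -0.61 and -1.79 (SE 0.25, 0.17 and 0.34, edgeR adjusted p = 0.0019, 0.019 and 0.0023). On the most distal tested segment alone Atg4a and Atg4b were at -0.56 and -0.26 (adjusted p = 0.082 and 0.25) and Atg4d at -2.13 (adjusted p = 9.9e-04). Desi1 and Desi2, which act on SUMO, fell as well, with log2 fold changes of -0.91 and -1.97 (SE 0.19 and 0.26, adjusted p = 0.0035 and 3.2e-04). On the distal segment alone they were at -0.84 and -1.98 (adjusted p = 0.0083 and 3.2e-04). Senp2 and Senp6 rose on that segment, to 1.03 and 0.65 (adjusted p = 0.0016 and 0.0498). Their gene sums, at 0.04 and 0.56, did not pass (adjusted p = 0.90 and 0.074).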

How the data were processed

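Bulk mRNA of gastrocnemius muscle was sequenced from a stranded library kit. The authors deposited counts of read pairs per 3′UTR segment, made with fastp, STAR and featureCounts (Subread) on GRCm39, and used DESeq2 themselves; the strand setting of the counting is not given in the sources used here, so antisense reads cannot be told apart. Of 52423 segments, 52361 were matched to genes through GENCODE M39, and the 62 others hold 0.0197% of the counts. A further 4 columns of per-sample values were not used.

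Counts were summed per gene and tested with edgeR 4.0.16 in R 4.3.3 (TMM, filter on low counts by group, quasi-likelihood test, Benjamini-Hochberg adjustment over all features, threshold 0.05). Levels are CPM on TMM-scaled library sizes. Segment usage was tested with edgeR over genes with at least 2 tested segments. Alternatives were DESeq2 1.42.0, limma-voom in limma 3.58.1, other scalings and filters, other choices of segments, a replicate block, libraries drawn down to 1606909 counts, and each library left out. In counts simulated for the gene comparison, over 7687 genes, edgeR recovered 57 of 96 genes changed by 1 and 95 of 95 changed by 2 on the log2 scale, with 12 false calls. For segment usage, over 2209 genes, 24 of 99 and 82 of 96 were recovered, with 1 false call. The gene simulation changed few genes, as many up as down, and neither simulation held a shift between distal and upstream segments shared by most genes. The recovered and false calls may therefore not carry over to these data. Exact permutation tests used all 252 labellings. The distal-to-upstream ratio used genes with upstream segments at least 1000 bases away, at least 200 unshared bases and at least 50 counts, with 0.5 added.

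The genes and lists were chosen with earlier results of these data known. Named are genes past the threshold in the gene, distal or usage test, the 5 others with the highest counts per kb, and up to 6 called genes of each pathway list. Other genes with values, such as Uchl1, Usp10, Josd1, Bap1, Senp2 and Senp6 and the partners Adrm1, G3bp1 and Babam2, were named after their values were seen.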

Additional observations from a re-analysis of the deposited data

Results flagged for a closer look

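In 8 of 78 groups of 5 libraries a deubiquitinase had 1 library far from the other 4, where chance gives about 1 in 20. Josd1 was at 78.3 CPM in CTRL replicate 1, beside 61.4 to 63.2 CPM in the other CTRL libraries. Usp3 was at 54.7 CPM in the same library, beside 31.1 to 34.8 CPM. Otud6b was at 91.9 CPM in CTRL replicate 3, beside 124 to 132 CPM, and at 64.7 CPM in ASO replicate 3, beside 87.2 to 93.2 CPM. Usp15 was at 31.1 CPM in CTRL replicate 3, beside 67.9 to 80.7 CPM. Usp31 was at 9.34 CPM in ASO replicate 2, beside 17.0 to 19.6 CPM. Usp40 was at 14.0 CPM in CTRL replicate 5, beside 7.07 to 8.89 CPM, and Usp6nl at 3.73 CPM in CTRL replicate 2, beside 8.26 to 9.90 CPM.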

How the results depend on the processing

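With libraries drawn down to the smallest, Usp5 and Usp40 remained called (adjusted p = 0.046 and 0.012) and Josd2 did not (0.079). With total counts as the scaling 1 deubiquitinase rose and 8 fell. On the most distal segment with any count 0 rose and 2 fell (25 tested), and 2 partners of deubiquitinases and 3 proteases of ubiquitin-like proteins were called. On the other segments 8 rose and 5 fell (23 tested), beside 835 and 917 of 3439 genes over the table. There 7 deubiquitinases outside the symbol rule and 4 partners were called, while Otud6b turned to 0.084. That fit was scaled anew on upstream segments, which moved genes alike (Uchl5 to 1.14, Usp34 to 1.11), and 2129 of the 2132 Otud6b counts were in both fits, so the turn is one of scale. On the most distal segment past the filter, added after seeing the data, 6 rose and 3 fell, and Usp32 turned to 0.074. There 7 deubiquitinases outside the rule were called, of which only Mindy2 was lower. Leaving out 1 library gave 3 to 5 rises and 4 to 6 falls, and 8 to 10 usage calls. Over all genes 916 rose and 1365 fell, against 528 and 1821 with total counts and 388 and 604 on the most distal segment, and 851 fell on the most distal segment past the filter. Of the called genes, Usp5 and Josd2 lost their call in 13 alternatives each, Usp7, Usp32 and Usp34 in 2 each, and Uchl5, Usp24, Usp40 and Otud6b in 1 each, the turns of Usp32 and Otud6b included. The replicate numbers are shared by the groups, but same-numbered libraries did not deviate together (correlations from -0.43 to 0.16), and of the CTRL libraries only replicate 4 correlated best with its own number. With the number as a replicate block 2 rose and 4 fell, and 9 usage calls were made. The cause of the other shifts was not tested.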
